A study of Mus musculus with 20 samples.

Results

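The change in gene expression between a late embryonic stage (E17.5) and birth (P0) was compared between lenses that lack 3 E2F transcription factors and control lenses. The question was which normal changes of this interval are blocked, reversed or exaggerated in the knockout. All 20 arrays of the series entered the comparison, 5 in each of the 4 groups defined by genotype and stage. Knockout P0 and knockout E17.5 lenses were Cry-Cre E2F1-/- E2F2-/- E2F3f/f. Control P0 and control E17.5 lenses were E2F2-/-. Loss of E2F2 was therefore shared by all 4 groups, and only the knockout groups carried the Cre transgene, the E2F1 null alleles and the floxed E2F3 alleles. Per the labels, both lenses of a mouse made up a sample, and litter, sex and strain are not given. The study's design text places this in the search for what precedes the collapse of newborn lenses without the 3 factors.

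The lens is a closed ball of a single epithelial lineage. A front layer of epithelial cells divides and supplies cells that leave the cell cycle at the equator, elongate into fibres, fill with crystallins and lose their organelles. A thick basement membrane, the capsule, surrounds both. E2F proteins bind promoters of replication and division genes, are held in check by the retinoblastoma family, and can act as activators in dividing cells and within repressor complexes in differentiating ones. Around birth the proliferating share of the rodent lens falls while fibre mass grows.

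The labels name the cell type as epithelial cells, but the arrays carried the markers of whole lenses. All 14 crystallin genes on the array and all 25 fibre structure genes lay above the array median in every array of every group. Of 24 lens epithelium markers, 22 did so in knockout P0, 22 in knockout E17.5 arrays, 19 in control P0 and 22 in control E17.5 arrays. In such bulk samples, fewer cells of a type and less RNA per cell cannot be told apart. The median SD of a gene within a group was 0.150 (log2) in knockout P0, 0.204 in knockout E17.5 arrays, 0.103 in control P0 and 0.0963 in control E17.5 arrays. Knockout E17.5 replicates 24 and 27 stood apart. Their mean correlation was higher with control E17.5 arrays (0.985 and 0.990) than within their own group (0.969 and 0.972). Each call that is lost without both is given with that value. Precision is limited by the number of arrays.

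No difference in stage change was called for the targeted genes, with values of -0.16 ± 0.12 for E2f1 (adjusted p = 0.542), 0.05 ± 0.09 for E2f2 (adjusted p = 0.841) and 0.01 ± 0.13 for E2f3 (adjusted p = 0.974). E2f1 signal averaged 7.79 in knockout P0, 7.81 in knockout E17.5 arrays, 7.34 in control P0 and 7.21 in control E17.5 arrays (log2, n = 5 each), and every knockout array lay above every control array. E2f2 averaged 6.21 in knockout P0, 6.22 in knockout E17.5 arrays, 6.26 in control P0 and 6.31 in control E17.5 arrays, with overlapping groups. E2f3 was lower at P0 than at E17.5 by nearly equal amounts, with a stage change of -0.44 ± 0.12 in knockout and -0.45 ± 0.06 in control lenses (SE). The labels do not say whether these probes lie within deleted exons, and the signals therefore do not check the genotypes.

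The stage changes of the 2 genotypes had much in common. In knockout lenses 1728 of 11860 genes differed between P0 and E17.5, 688 of them higher at P0 (5.8% of all genes tested) and 1040 lower (8.77%). In control lenses 4436 genes differed, 1484 higher at P0 (12.5%) and 2952 lower (24.9%). Each genotype was fitted on its own 10 arrays with limma, and a gene was called at a Benjamini-Hochberg adjusted p below 0.05. Called in both genotypes were 1006 genes, which are 58.2% of the knockout calls and 22.7% of the control calls. Of these, 1001 changed in the same direction. Of the 4436 control calls, 3854 (86.9%) had the same sign in knockout lenses, against 73.2% of all genes tested. Over the control calls, the median ratio of the knockout to the control stage change was 0.760. Over the knockout calls, the median ratio of the control to the knockout stage change was 0.510. Each ratio divides by the change that chose its genes, so neither compares the genotypes over all genes. Over all genes tested, the median absolute stage change was 0.189 in knockout (median SE 0.116) and 0.141 in control lenses (median SE 0.065). These 2 stage changes share no array, and Pearson's r between them was 0.54 across genes, which are not independent replicates. The knockout arrays varied more, so fewer calls in knockout lenses do not by themselves show smaller changes. The knockout count was 68 without knockout E17.5 replicates 25 and 26 together, and 448, 632 or 440 without knockout P0 replicate 17, 18 or 19, 742 or 668 without knockout E17.5 replicate 25 or 26, and 2716 without knockout E17.5 replicate 28. The control count was 451 with the 18S ribosomal RNA signal as a covariate, a measure described with the other array measures.

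**Figure D1:**
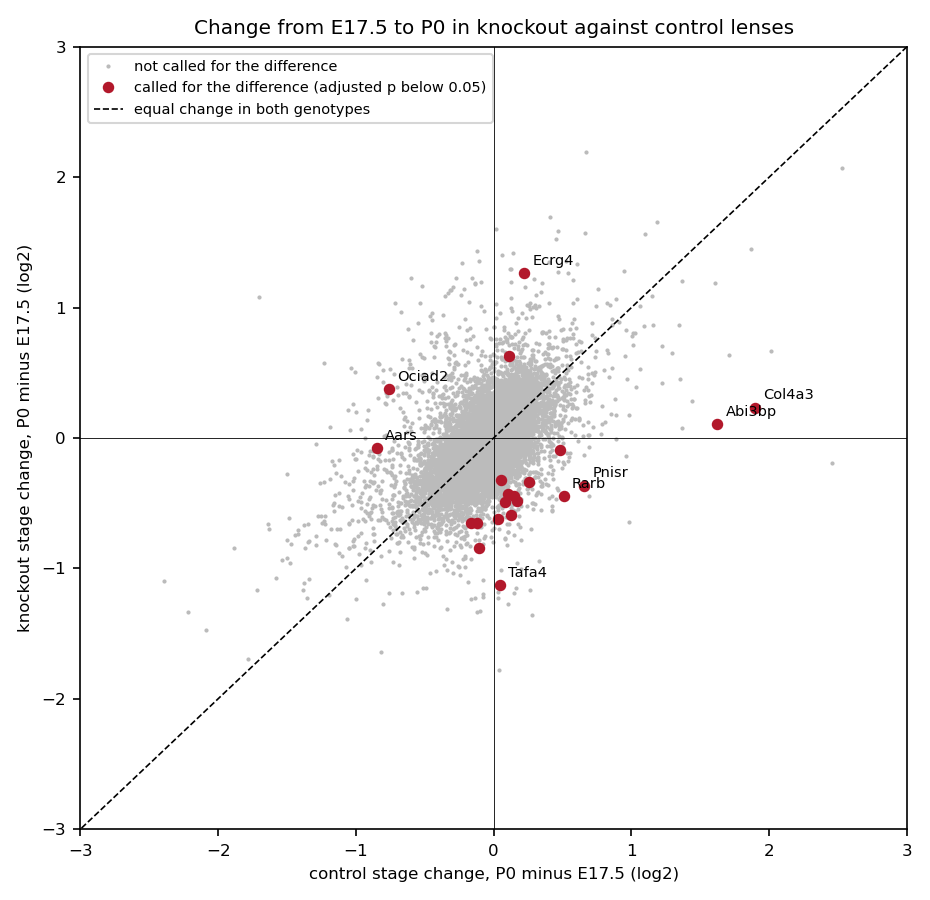
Each point is a gene, with its control stage change (P0 minus E17.5, log2) on the horizontal axis and its knockout stage change on the vertical axis, and the dashed line marks equal changes. Most of the 11860 genes lie around the line, and the 21 genes called for the difference (red) lie off it, 17 of them below it.

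The difference between the genotypes was tested directly, as the knockout effect at P0 minus the knockout effect at E17.5, which equals the knockout stage change minus the control stage change. In this fit of all 20 arrays 21 genes were called (0.177% of 11860), 4 with a positive difference (0.0337%) and 17 with a negative difference (0.143%). Their adjusted p-values lay between 0.0327 and 0.0481. At an unadjusted p below 0.05 there were 986 genes with a positive difference (8.31%) and 880 with a negative difference (7.42%). Of the 4436 control stage changes, 10 belonged to a gene with a called difference (0.225%). Sorted by the stage changes, 7 of the 21 genes had a control change that was blocked in knockout lenses (not called there), 2 had a reversed change, 1 had an exaggerated change, and 11 changed in knockout lenses with no called change in control lenses. The same arrays set the calls and these classes, so the classes are a description.

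The set of called genes was small and moved with single arrays. Their differences did not change sign in any setting tried. The settings reuse most of the arrays that chose the genes, so nothing is read from the kept sign. The count was 0 in limma fits with array weights per group (1744 genes at an unadjusted p below 0.05) or when 18S signal was a covariate (1206), and 1 when the mean retina marker signal was one (1680). It was 45 without knockout E17.5 replicates 24 and 27 together, of which 13 were among the 21, and 146 without replicates 25 and 26 together, of which 19 were. No gene was called when control P0 replicate 5, 6 or 7, control E17.5 replicate 10, 11, 12 or 15, knockout P0 replicate 17, 18 or 19, or knockout E17.5 replicate 27 was left out, with 1408 to 1752 genes at an unadjusted p below 0.05. The count was 3 without knockout E17.5 replicate 25, 6 without control E17.5 replicate 13, 35 without knockout P0 replicate 21, 48 without knockout E17.5 replicate 24, 168 without knockout E17.5 replicate 28 and 321 without knockout P0 replicate 22. Quantile normalization gave 7 positive and 12 negative calls.

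Among the blocked changes, Col4a3 stood first. It encodes the alpha3 chain of collagen IV, which joins the alpha4 and alpha5 chains in specialised basement membranes such as the lens capsule. Its log2 signal was 4.99, 5.31, 5.52, 6.09 and 5.51 in knockout P0 arrays and 5.76, 5.13, 5.22, 5.68 and 4.46 in knockout E17.5 arrays, against 7.47, 7.80, 7.77, 7.87 and 7.38 in control P0 arrays and 5.45, 5.55, 5.85, 6.14 and 5.82 in control E17.5 arrays. Only the control P0 arrays were high, and they overlapped with no other group. The stage change was 0.23 ± 0.25 (a ratio of 1.18, adjusted p = 0.552) in knockout lenses and 1.90 ± 0.14 (a ratio of 3.72, adjusted p = 2.14e-05) in control lenses. The difference was -1.66 ± 0.31 (adjusted p = 0.0355), and it was -1.35 ± 0.285 (adjusted p = 0.0465) without knockout E17.5 replicates 24 and 27. Both probe sets of the gene had a negative difference.

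Col4a4, the partner chain transcribed from the same region, had values in the same order but a wider spread. Its signal was 6.55, 5.61, 6.70, 7.37 and 7.56 in knockout P0, 7.43, 4.84, 5.42, 7.72 and 5.2 in knockout E17.5 arrays, 9.0, 9.52, 9.37, 9.49 and 9.73 in control P0 and 7.02, 7.56, 7.80, 8.16 and 8.02 in control E17.5 arrays. The knockout E17.5 arrays split, with replicates 24 and 27 within the range of the controls of that stage and the others at 5.42 or below. Its stage change was 0.64 ± 0.59 in knockout and 1.71 ± 0.20 in control lenses, and the difference of -1.07 ± 0.67 did not pass (adjusted p = 0.446). Differences of the other chains were -0.27 for Col4a5, -0.33 for Col4a1 and -0.54 for Col4a2, none of them called. Of 21 capsule and matrix genes tested, Col4a3 alone was called (lower). The list's median difference was -0.15, against 0.03 over all genes tested, and its median stage change was -0.17 in knockout and 0.03 in control lenses. Vcan, the matrix proteoglycan versican, lay at the other end with a difference of 1.57 ± 0.52 (adjusted p = 0.178).

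Abi3bp, which encodes a secreted matrix protein, had a similar pattern. Its signal was 5.22, 5.07, 5.41, 4.89 and 5.96 in knockout P0, 5.07, 5.41, 5.19, 5.12 and 5.23 in knockout E17.5 arrays, 6.39, 6.84, 7.25, 7.18 and 6.44 in control P0 and 4.84, 5.23, 4.99, 5.35 and 5.58 in control E17.5 arrays. Again the control P0 arrays alone were high, above every array of the other groups. The stage change was 0.11 ± 0.17 in knockout and 1.62 ± 0.19 in control lenses (a ratio of 3.08), and the difference was -1.52 ± 0.27 (adjusted p = 0.0327). It was -1.59 without knockout E17.5 replicates 24 and 27.

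Transcription factors were also among the blocked rises. Rarb, a retinoic acid receptor, lay between 6.51 and 7.25 in knockout P0 arrays, between 7.04 and 7.42 in knockout E17.5 arrays, between 7.29 and 7.44 in control P0 and between 6.66 and 7.08 in control E17.5 arrays. Its stage change was -0.45 ± 0.14 (adjusted p = 0.0573) in knockout and 0.51 ± 0.07 in control lenses, with a difference of -0.96 ± 0.17 (adjusted p = 0.0327). The knockout value thus lay on the other side of 0 without being called. Hlf, a PAR-type basic leucine zipper factor, lay between 6.47 and 6.76 in knockout P0, between 6.45 and 6.84 in knockout E17.5 arrays, between 7.15 and 7.33 in control P0 and between 6.6 and 6.81 in control E17.5 arrays. Only the control P0 arrays were high. The difference was -0.58 ± 0.11 (adjusted p = 0.0355), and -0.516 (adjusted p = 0.0557) without knockout E17.5 replicates 24 and 27. Pnisr, a nuclear protein rich in serine and arginine repeats, had a stage change of -0.37 ± 0.16 in knockout and 0.66 ± 0.12 in control lenses and a difference of -1.02 ± 0.20 (adjusted p = 0.0432). All 7 of its probe sets had a negative difference, and knockout P0 and control P0 arrays overlapped because control P0 replicate 1 was low. Without knockout E17.5 replicates 24 and 27, the knockout stage change of Pnisr was called (-0.53, adjusted p = 0.0270).

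Both remaining blocked changes were falls. Ociad2, a mitochondrial protein with an OCIA domain, had signals of 9.78, 9.67, 9.81, 9.57 and 9.86 in knockout P0, 9.22, 9.09, 9.46, 9.70 and 9.35 in knockout E17.5 arrays, 8.94, 8.86, 8.51, 8.03 and 9.19 in control P0 and 9.45, 9.41, 9.54, 9.45 and 9.49 in control E17.5 arrays. Control P0 was the low group and did not overlap with knockout P0 or control E17.5. From E17.5 to P0 the change was 0.37 ± 0.12 (adjusted p = 0.0514) in knockout and -0.76 ± 0.17 in control lenses, with a difference of 1.13 ± 0.22 (adjusted p = 0.0355). Without knockout E17.5 replicates 24 and 27 the knockout stage change was called (0.44, adjusted p = 0.0321).

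Aars, the alanyl-tRNA synthetase that charges tRNA with alanine, fell in control lenses, and its knockout change was not called. Its signal was 9.31, 9.60, 9.32, 9.21 and 9.32 in knockout P0, 9.40, 9.84, 9.58, 9.19 and 9.13 in knockout E17.5 arrays, 8.83, 8.88, 8.88, 8.89 and 8.80 in control P0 and 9.77, 9.61, 9.78, 9.68 and 9.69 in control E17.5 arrays. The control P0 arrays lay below all others, and the knockout arrays of the 2 stages overlapped. Between the stages the change was -0.08 ± 0.14 (adjusted p = 0.726) in knockout and -0.85 ± 0.04 (a ratio of 0.556) in control lenses. The difference was 0.77 ± 0.15 (adjusted p = 0.0355), with the same value for both probe sets. It was 0.682 ± 0.152 (adjusted p = 0.0557) without knockout E17.5 replicates 24 and 27.

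**Figure D2:**
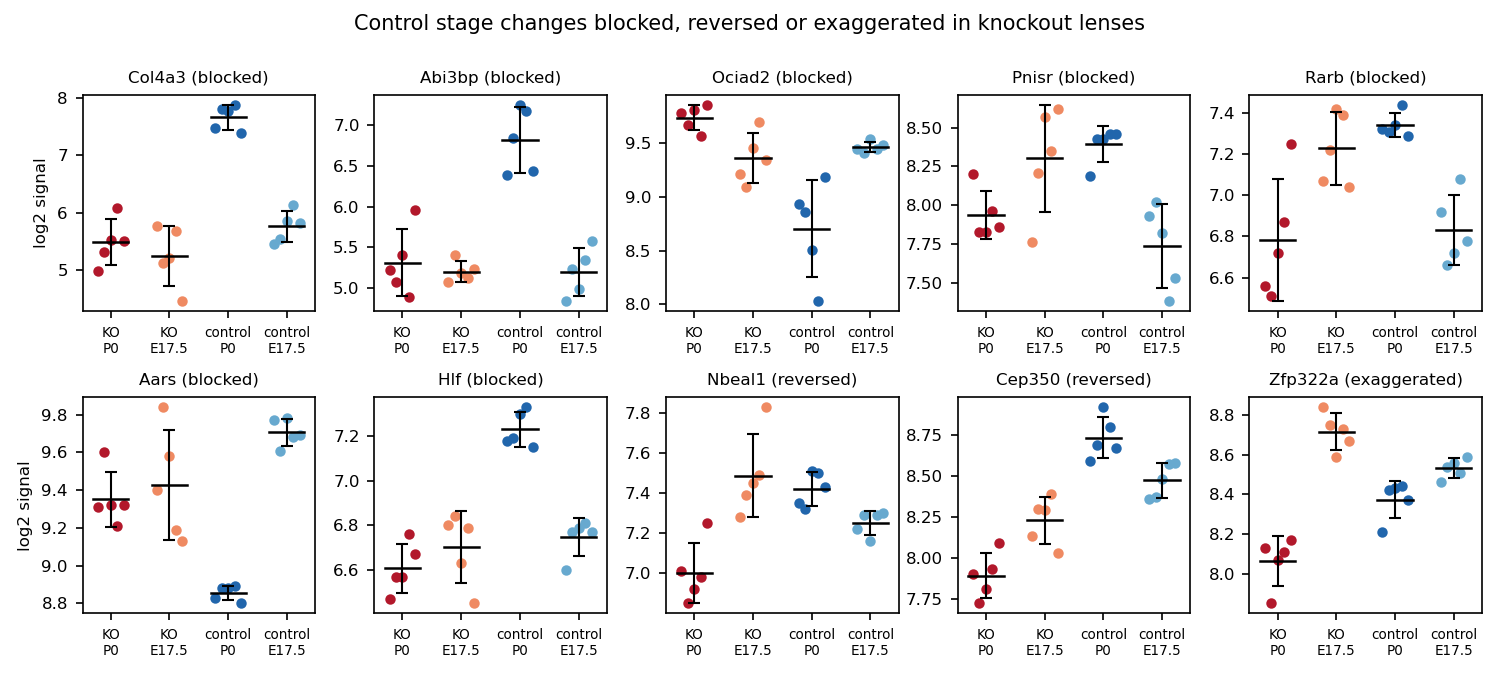
Log2 signal of each array (points, mean and SD of 5 arrays in black) for the 7 blocked, 2 reversed and 1 exaggerated changes, with knockout P0, knockout E17.5, control P0 and control E17.5 from left to right. For Col4a3, Abi3bp and Hlf the control P0 arrays alone are high, and for Aars they alone are low.

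Aars belongs to a list of 23 tested genes of tRNA charging and amino acid supply. Many genes of this kind are known targets of ATF4, a factor that cells make when amino acids are short. Of the list, 1 gene was called for a positive difference and 0 for a negative one, and 8 had a positive and 2 a negative difference at an unadjusted p below 0.05. Over all genes tested, these unadjusted shares were 8.31% positive and 7.42% negative. In knockout lenses 5 of the 23 fell between E17.5 and P0 and 0 rose. In control lenses 16 fell and 1 rose, and for 14 of those 16 the knockout change was less negative or positive, against 65.6% of all genes that fell in control lenses. The 16 were chosen by their control call, so this count is a description. The median difference was 0.17, and the median stage change was -0.13 in knockout and -0.36 in control lenses. Members with large values that were not called were Asns, which makes asparagine, with a difference of 0.90 ± 0.20 (adjusted p = 0.0843), the methionyl-tRNA synthetase Mars1 with 0.57 ± 0.12 (adjusted p = 0.0665), the tyrosyl-tRNA synthetase Yars with 0.61 ± 0.14 (adjusted p = 0.0843) and the glycyl-tRNA synthetase Gars with 0.49 ± 0.12 (adjusted p = 0.0985). Mthfd2, a mitochondrial folate enzyme outside the list, had 0.74 ± 0.17 (adjusted p = 0.0843).

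The list of tRNA charging and amino acid supply had a median knockout effect of -0.03 at P0 and -0.17 at E17.5. Its mean signal was 8.97 to 9.08 in knockout P0 and 9.10 to 9.32 in knockout E17.5 arrays. In control lenses the mean was 8.95 to 9.02 at P0 and 9.31 to 9.44 at E17.5. At P0 the genotypes thus overlapped in the list mean, while for Asns they did not. Asns had a knockout effect of 0.48 at P0 and -0.42 at E17.5. Its signal was 9.31, 9.43, 9.20, 9.15 and 9.22 in knockout P0, 9.23, 9.27, 9.17, 9.13 and 9.95 in knockout E17.5 arrays, 8.48, 8.71, 9.0, 8.78 and 8.94 in control P0 and 10.09, 9.78, 9.57, 9.52 and 9.92 in control E17.5 arrays. Knockout arrays of either stage lay between the 2 control groups, apart from knockout E17.5 replicate 28 at 9.95. Not all members followed this order. Phgdh, the first enzyme of serine synthesis, fell in both genotypes, with stage changes of -0.63 in knockout and -0.33 in control lenses, and Slc38a2, an amino acid transporter outside the list, had a difference of -0.54 ± 0.11 (adjusted p = 0.0651).

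The promoters of the 3 genes below are shown because their products act in this step and each holds the ATF4-type motif TGATGNAA (capitals, on either strand) within the 150 bases before the start of the gene. The sequences are those of RefSeq (GRCm38.p6), written 5′ to 3′ on the strand of the gene. Aars lies at chr8:111033692-111033841 (plus strand), Asns at chr6:7693210-7693359 (minus strand) and Gars at chr6:55037851-55038000 (plus strand).
Aars: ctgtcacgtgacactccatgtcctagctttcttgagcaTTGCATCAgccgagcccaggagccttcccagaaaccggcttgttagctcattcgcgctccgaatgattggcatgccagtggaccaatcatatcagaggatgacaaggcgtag
Asns: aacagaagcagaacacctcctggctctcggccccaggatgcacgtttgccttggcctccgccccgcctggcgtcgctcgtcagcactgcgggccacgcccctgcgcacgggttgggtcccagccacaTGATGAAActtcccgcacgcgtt
Gars: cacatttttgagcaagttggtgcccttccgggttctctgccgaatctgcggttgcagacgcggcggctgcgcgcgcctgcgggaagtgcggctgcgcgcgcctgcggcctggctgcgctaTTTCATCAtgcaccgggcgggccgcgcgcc
The match begins 112 bases before the start in Aars, 23 in Asns and 30 in Gars, and is on the gene's strand in Asns and on the opposite strand in Aars and Gars. Over the 250 bases before the start, 177 of 9604 promoters of tested genes held the motif (1.84%), against 5 of 16 promoters matched for this list (31.2%). For genes with several starts the first in the table was taken. Many genes of this kind are known ATF4 targets, so the share of the list is no result on their stage changes. A match is a run of letters and was not tested for binding.

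The 2 reversed changes were small. Nbeal1, a BEACH domain protein related to neurobeachin, had signals of 7.01, 6.85, 6.92, 6.98 and 7.25 in knockout P0, 7.28, 7.39, 7.45, 7.49 and 7.83 in knockout E17.5 arrays, 7.35, 7.32, 7.51, 7.5 and 7.43 in control P0 and 7.22, 7.29, 7.16, 7.29 and 7.30 in control E17.5 arrays. In knockout lenses P0 lay below E17.5 with no overlap, and in control lenses P0 lay above E17.5 with no overlap. The stage change was -0.49 ± 0.11 (adjusted p = 0.0222) in knockout and 0.17 ± 0.05 (adjusted p = 0.0243) in control lenses, and the difference was -0.66 ± 0.12 (adjusted p = 0.0355). All 4 probe sets had a negative difference. Cep350, a centrosome protein that anchors microtubules, had a stage change of -0.34 ± 0.10 (adjusted p = 0.0424) in knockout and 0.26 ± 0.07 (adjusted p = 0.0158) in control lenses, with a difference of -0.59 ± 0.12 (adjusted p = 0.0481). Its knockout stages overlapped. Without knockout E17.5 replicates 24 and 27 neither its difference (-0.572, adjusted p = 0.0557) nor its knockout stage change (-0.315, adjusted p = 0.0859) was called. Apart from these, 3 of the 1006 genes called in both genotypes changed in opposite directions without a called difference. Zcchc7 changed by -0.53 in knockout and 0.24 in control lenses, Thoc2l by -0.39 in knockout and 0.25 in control lenses, and Tpd52l1 by 0.59 in knockout and -0.27 in control lenses.

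Zfp322a, a zinc finger protein, was the single exaggerated change. Its signal was 8.13, 7.85, 8.07, 8.11 and 8.17 in knockout P0, 8.84, 8.75, 8.59, 8.73 and 8.67 in knockout E17.5 arrays, 8.21, 8.42, 8.43, 8.44 and 8.37 in control P0 and 8.46, 8.54, 8.56, 8.51 and 8.59 in control E17.5 arrays. Stages did not overlap in either genotype. The fall was larger in knockout lenses, with a stage change of -0.65 ± 0.08 against -0.16 ± 0.05 in control lenses and a difference of -0.49 ± 0.09 (adjusted p = 0.0355). The difference was not called without knockout E17.5 replicates 24 and 27 (-0.443, adjusted p = 0.059).

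The largest class held 11 changes called in knockout lenses only, 9 falls and 2 rises, whose control stage changes lay between -0.12 and 0.22 and were not called. Tafa4, a secreted chemokine-like protein, had signals of 6.07, 5.65, 5.86, 6.02 and 6.27 in knockout P0, 7.27, 7.29, 6.77, 6.98 and 7.20 in knockout E17.5 arrays, 6.77, 6.88, 7.13, 7.08 and 7.26 in control P0 and 6.59, 6.95, 7.13, 7.01 and 7.20 in control E17.5 arrays. The knockout P0 arrays were low and overlapped with no other group. This gave a stage change of -1.13 ± 0.14 (a ratio of 0.458) in knockout and 0.05 ± 0.12 in control lenses, and the difference was -1.17 ± 0.19 (adjusted p = 0.0327). Ecrg4, the secreted peptide precursor augurin, was the largest rise. Its signal was 6.81, 6.56, 6.88, 6.09 and 6.63 in knockout P0, 5.15, 5.18, 5.48, 5.09 and 5.75 in knockout E17.5 arrays, 5.70, 5.52, 5.40, 5.25 and 5.68 in control P0 and 5.22, 5.40, 5.26, 5.41 and 5.15 in control E17.5 arrays. Here the knockout P0 arrays alone were high. The stage change was 1.26 ± 0.17 (a ratio of 2.40) in knockout and 0.22 ± 0.09 (adjusted p = 0.0749) in control lenses, and the difference was 1.04 ± 0.20 (adjusted p = 0.0355). It was 0.901 (adjusted p = 0.0602) without knockout E17.5 replicates 24 and 27. Ak5, an adenylate kinase that is best known from brain, rose by 0.63 ± 0.08 in knockout lenses, with a difference of 0.52 ± 0.10, and 0.4997 (adjusted p = 0.0553) without those arrays.

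Several of the 9 falls belong to nuclear proteins, which are named here for their roles and were not tested as a group. Rif1, which sets replication timing and acts in double-strand break repair, had a knockout stage change of -0.45 ± 0.10 and a difference of -0.59 ± 0.12 (adjusted p = 0.0481). Zmym2, a zinc finger protein of chromatin complexes, had -0.66 ± 0.08 and -0.54 ± 0.09. Tasor, a core subunit of the HUSH silencing complex, had -0.43 ± 0.08 and -0.53 ± 0.09. Btaf1, which removes TATA-binding protein from DNA, had -0.32 ± 0.07 and -0.38 ± 0.07, and Ice2, a subunit of the little elongation complex that serves small nuclear RNA genes, had -0.85 ± 0.12 and -0.74 ± 0.13. For each of these 5 genes the knockout P0 arrays lay below all knockout E17.5 and all control P0 arrays. The contrast that chose the genes holds these groups, so nothing is read from this. Of all 11860 genes tested, 25.9% had no overlap between the genotypes at P0. The share between the knockout stages was not counted. The second probe set of Ice2 had a difference of only -0.07 ± 0.12, and 3 of 4 probe sets of Rif1 had a negative difference. Dcaf17, an adaptor of a ubiquitin ligase, had a difference of -0.72 ± 0.13, and 2700038G22Rik had -0.57 ± 0.11. Without knockout E17.5 replicates 24 and 27 the difference was not called for Btaf1 (-0.344, adjusted p = 0.0617) or 2700038G22Rik (-0.517, adjusted p = 0.059).

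Clrn1, a membrane protein of sensory cells, differed from the others in where its arrays stood apart. It lay between 6.24 and 6.62 in knockout P0, between 6.90 and 7.22 in knockout E17.5 arrays, between 6.46 and 6.82 in control P0 and between 6.53 and 6.70 in control E17.5 arrays. The knockout E17.5 arrays were the high group, and at P0 the genotypes overlapped. The difference was -0.66 ± 0.12 (adjusted p = 0.0327). Across the 21 called genes, 19 had no overlap between knockout P0 and control P0 arrays, and 2 (Clrn1 and Zfp322a) had none between knockout E17.5 and control E17.5 arrays. Over all 11860 genes tested, 25.9% had no overlap between the genotypes at P0 and 9.95% at E17.5. The contrast that chose the 21 genes holds these groups, so nothing is read from the counts.

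**Figure D3:**
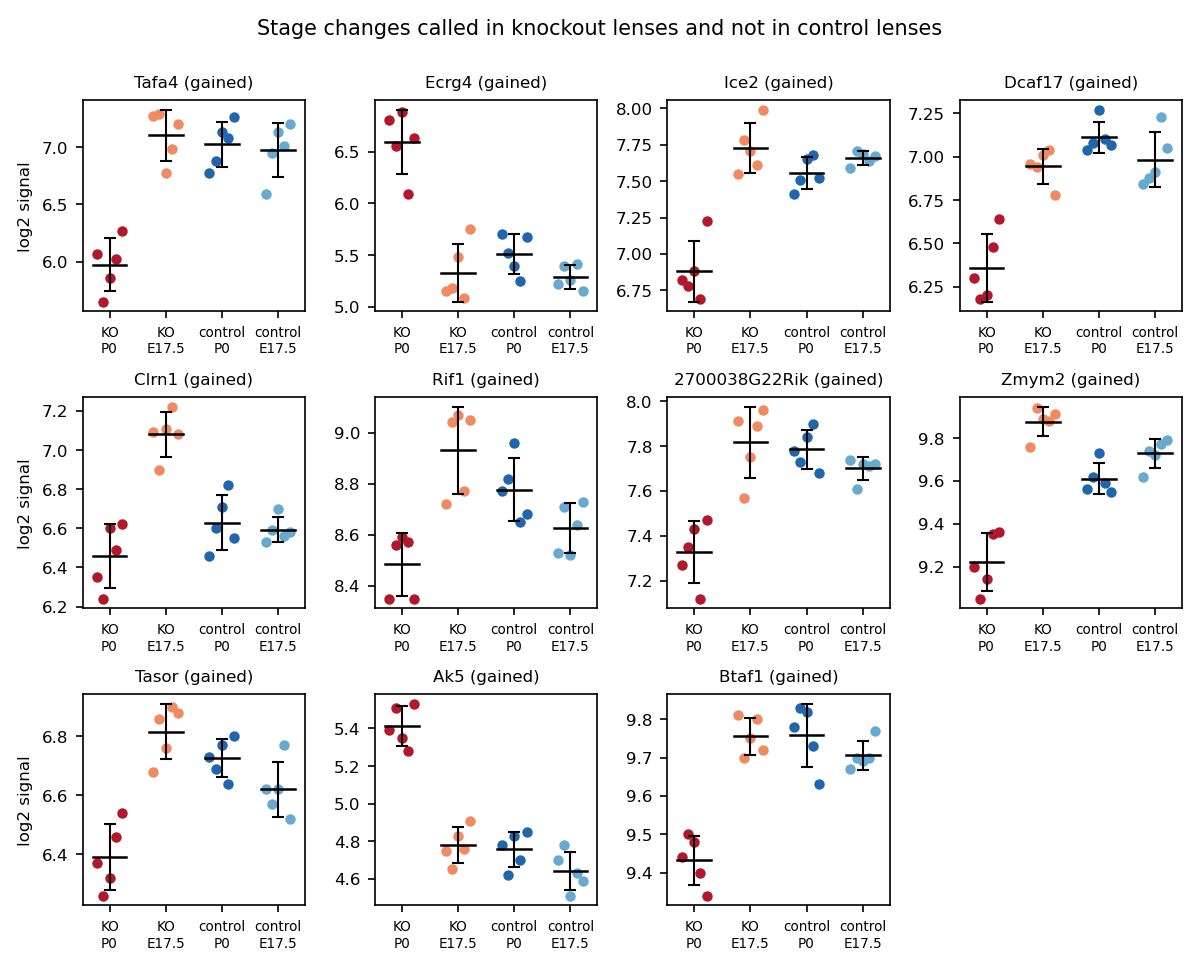
Log2 signal of each array (points, mean and SD of 5 arrays in black) for the 11 genes with a stage change called in knockout lenses and not in control lenses, in the group order knockout P0, knockout E17.5, control P0, control E17.5. The knockout P0 arrays stand apart from all other groups for Tafa4, Ecrg4, Ak5, Btaf1, Ice2, Dcaf17, Zmym2 and 2700038G22Rik, and the knockout E17.5 arrays for Clrn1.

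Most mitosis and replication genes fell in control lenses, and none had a called difference. Of 43 mitosis genes tested, 18 fell between E17.5 and P0 in knockout lenses and 42 in control lenses, and none rose in either. Over all genes tested, 8.77% fell in knockout and 24.9% in control lenses. For 41 of the 42 the knockout change was less negative or positive, against 1936 of all 2952 genes that fell in control lenses (65.6%). The 42 were chosen by their control call, so this count is a description. The median stage change was -0.49 in knockout and -0.96 in control lenses, and the median difference was 0.52, against 0.03 over all genes. Over 33 other settings the median difference of the mitosis list lay between 0.26 and 0.70. No mitosis gene passed the adjusted limma test for the difference (smallest adjusted p = 0.116), while 20 of 43 had a positive and 0 a negative difference at an unadjusted p below 0.05. Over all genes tested, these unadjusted shares were 8.31% positive and 7.42% negative. Ube2c, the ubiquitin-conjugating enzyme of the anaphase-promoting complex, had signals of 7.65, 7.88, 7.52, 7.83 and 8.17 in knockout P0, 8.38, 8.92, 8.56, 8.35 and 8.34 in knockout E17.5 arrays, 6.37, 6.22, 6.34, 5.85 and 7.38 in control P0 and 7.82, 8.06, 8.18, 8.27 and 8.0 in control E17.5 arrays. It fell in both genotypes, with stage changes of -0.70 ± 0.15 in knockout and -1.63 ± 0.23 in control lenses, and its difference was 0.94 ± 0.29 (adjusted p = 0.148). Control P0 replicate 8 was nearest to the knockout values. Spc25, a kinetochore protein, changed by -0.17 ± 0.15 in knockout and -1.12 ± 0.19 in control lenses (difference 0.95 ± 0.26, adjusted p = 0.116).

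Replication genes differed less. Of 46 tested, 7 fell and 1 rose in knockout lenses, and 37 fell and 1 rose in control lenses. The median stage change was -0.31 in knockout and -0.60 in control lenses. The median difference was 0.26, but 0.06 without knockout E17.5 replicates 24 and 27 and -0.06 with the 18S signal as a covariate. No replication gene was called for the difference in limma, and 8 of 46 had a positive and 1 a negative difference at an unadjusted p below 0.05 (8.31% and 7.42% of all genes tested). Prim1, the small primase subunit, had the largest value. Its signal was 8.17, 8.38, 7.98, 7.96 and 7.95 in knockout P0, 7.94, 8.41, 8.15, 7.45 and 8.41 in knockout E17.5 arrays, 6.86, 6.65, 6.52, 6.27 and 6.40 in control P0 and 7.17, 7.44, 7.16, 7.62 and 7.30 in control E17.5 arrays. Its stage change was 0.02 ± 0.18 in knockout and -0.80 ± 0.12 in control lenses (difference 0.82 ± 0.22, adjusted p = 0.119). Mcm5, a subunit of the replicative helicase, changed by -0.50 ± 0.25 in knockout and -1.16 ± 0.09 in control lenses (difference 0.66 ± 0.28, adjusted p = 0.267). Timeless, a protein that steadies replication forks, went the other way, with stage changes of 0.65 ± 0.20 (adjusted p = 0.0528) in knockout and 1.30 ± 0.20 in control lenses.

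The promoter of Mcm5, named after its values were seen, is shown as that of an E2F target without a called difference. With the 18S signal as a covariate, the Mcm5 difference was -0.008. The sequence lies at chr8:75109349-75109508 (GRCm38.p6, plus strand, 160 bases before the start, RefSeq). Matches to the E2F-type motif TTTNNCGC on both strands are in capitals.
Mcm5: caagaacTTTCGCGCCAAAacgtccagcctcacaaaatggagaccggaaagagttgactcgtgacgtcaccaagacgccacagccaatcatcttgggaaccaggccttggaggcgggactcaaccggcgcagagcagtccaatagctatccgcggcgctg
The 2 matches overlap, and begin 153 and 149 bases before the start. Over the 250 bases before the start, 704 of 9604 promoters held this motif (7.33%), against 9 of 36 promoters matched for the replication list (25%) and 2 of 35 for the mitosis list (5.71%). E2F proteins are known to bind promoters of such genes, so these shares are no result on the stage changes.

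Other lists of division and stress had no called difference. The median difference was 0.12 over 21 genes of G1 and S control, 0.28 over 15 of nucleotide synthesis, 0.11 over 18 of histone variants and chromatin proteins, 0.11 over 24 of the DNA damage response, 0.01 over 31 p53 targets and 0.06 over 21 of apoptosis, and 0 members were called by limma. Of these lists nucleotide synthesis had the widest gap between medians, with a stage change of -0.29 in knockout and -0.59 in control lenses. Bcl2l11, the cell death inducer Bim, had a difference of -0.43 ± 0.15 (adjusted p = 0.190), and Aen, a p53-induced nuclease, had 0.44 ± 0.16 (adjusted p = 0.197). At an unadjusted p below 0.05 there were 3 positive and 1 negative differences in G1 and S control, 4 and 0 in nucleotide synthesis, 2 and 1 in chromatin, 3 and 2 in DNA damage, 3 and 0 in p53 targets and 0 and 3 in apoptosis.

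No difference was called among fibre genes. For 14 crystallins the median stage change was 0.05 in knockout and 0.04 in control lenses, and none had a difference at an unadjusted p below 0.05. Crybb2, a late beta crystallin, rose in both genotypes, by 2.07 ± 0.44 in knockout and 2.53 ± 0.11 in control lenses, with a difference of -0.46 ± 0.49 (adjusted p = 0.671). The crystallin signals lie near the top of the scale, where arrays compress differences. For 25 fibre structure genes the medians were 0.15 in knockout and 0.16 in control lenses, and 3 genes rose in knockout and 15 in control lenses. Their differences lay between -0.45 and 0.37, with a median of 0.01, no called gene and 1 positive and 1 negative at an unadjusted p below 0.05. Lens transcription factors had a median difference of -0.14 over 21 genes, with 0 called and 2 negative at an unadjusted p below 0.05, and Prox1, which drives fibre differentiation, changed by 0.24 ± 0.10 in knockout and 0.58 ± 0.05 in control lenses (difference -0.33 ± 0.11, adjusted p = 0.187).

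Lens epithelium markers had differences of both signs, 8 of 22 positive. Of 22 tested, 4 fell in knockout lenses and 0 rose, and 3 fell and 3 rose in control lenses. The median stage change was -0.24 in knockout and 0.01 in control lenses. No member was called for the difference, and 2 had a positive and 6 a negative one at an unadjusted p below 0.05. Pdgfra, the receptor for the lens mitogen PDGF-A, changed by -1.78 ± 0.53 in knockout and 0.04 ± 0.17 in control lenses (difference -1.82 ± 0.60, adjusted p = 0.179). Cdh1, the epithelial cadherin, changed by -1.28 ± 0.37 in knockout and 0.10 ± 0.21 in control lenses (difference -1.38 ± 0.45, adjusted p = 0.172). Sulf1, a heparan sulfate sulfatase, changed by -0.94 ± 0.25 in knockout and 0.33 ± 0.15 in control lenses (difference -1.27 ± 0.31, adjusted p = 0.0902). Pdgfra and Cdh1 were named after their values were seen, as were Cldn1 and Krt18 on the positive side. Cldn1, a tight junction claudin, had a difference of 1.34 ± 0.66 (adjusted p = 0.332). Krt18, a keratin of simple epithelia, had 1.12 ± 0.45 (adjusted p = 0.238). Knockout E17.5 replicates 24 and 27 were the lowest of their group for both genes.

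**Figure D4:**
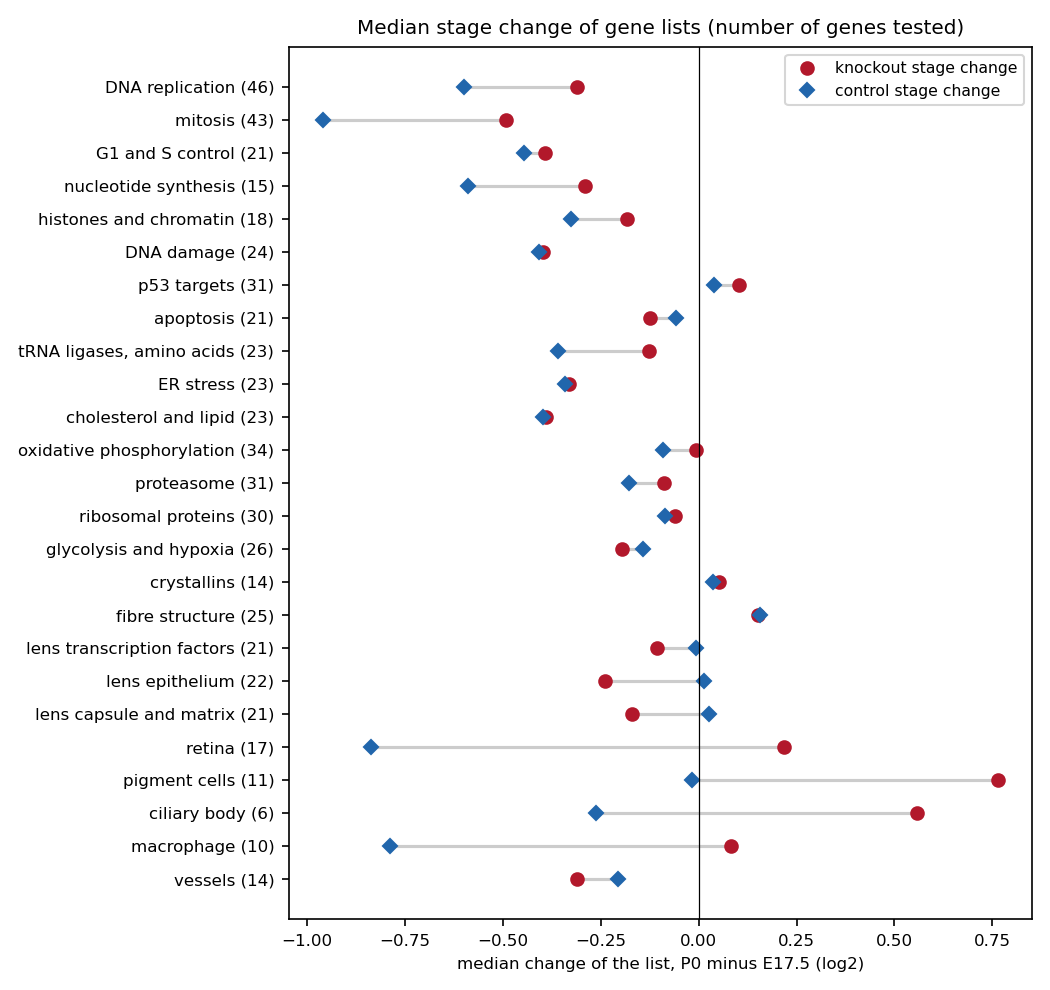
Median stage change (P0 minus E17.5, log2) of 25 gene lists in knockout lenses (circles) and control lenses (diamonds), with the number of genes tested in brackets. Mitosis genes stand at -0.49 in knockout and -0.96 in control lenses, fibre structure genes at 0.15 and 0.16, and the markers of retina, pigment cells, ciliary body and macrophages have their knockout median right of their control median.

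Markers of several other eye tissues had positive median differences without a called member, and their part in the results above was not tested beyond the covariate fits. Retina markers (20 genes, 17 tested) had a mean signal of 6.31 to 7.21 in knockout P0, 5.54 to 7.57 in knockout E17.5 arrays, 4.65 to 5.94 in control P0 and 5.50 to 6.41 in control E17.5 arrays. Their median stage change was 0.22 in knockout and -0.84 in control lenses, with a median difference of 1.01, which was 0.30 without knockout E17.5 replicates 24 and 27. The lowest knockout E17.5 arrays were replicates 24 and 27. No retina marker was called for the difference, and 3 of 17 were positive at an unadjusted p below 0.05. Nrl, a photoreceptor transcription factor, had the smallest p of the list, with a stage change of 2.20 ± 0.13 in knockout and 0.67 ± 0.31 in control lenses (difference 1.53 ± 0.35, adjusted p = 0.0843). Its mean signal exceeded the array medians (5.05 to 5.25) only for knockout P0, at 6.03. Control lenses averaged 3.99 at E17.5 and 4.66 at P0, and knockout lenses 3.83 at E17.5. Nrl thus passed the filter mainly through knockout P0 arrays, and its stage changes start from weak signals. The median difference was 0.78 for 11 pigment cell markers, 1.07 for 6 of the ciliary body, 0.70 for 10 of macrophages and 0.44 for 6 of glia, with 0 called by limma. At an unadjusted p below 0.05, 5 pigment, 1 ciliary, 1 macrophage and 2 glia markers were positive and 1 glia marker was negative. Without knockout E17.5 replicates 24 and 27, which were the lowest of their group for the mean of each of these lists, the median was 0.31 for pigment cells, 0.23 for the ciliary body, 0.38 for macrophages and 0.25 for glia. With the 18S covariate it was 0.21 for pigment cells, 0.34 for the ciliary body, 0.66 for macrophages and 0.14 for glia. The retina median changed sign with that covariate. Dct, an enzyme of melanin synthesis, changed by 1.04 ± 0.54 in knockout and -0.72 ± 0.24 in control lenses (difference 1.75 ± 0.64, adjusted p = 0.203). Tyrobp, an adaptor of myeloid receptors, changed by 0.20 ± 0.45 in knockout and -1.0 ± 0.31 in control lenses (difference 1.2 ± 0.59, adjusted p = 0.328). Vessel markers had a median difference of -0.07 over 14 genes. Of 10 corneal surface markers, at most 1 lay above the array median in all 5 arrays of any group.

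**Figure D5:**
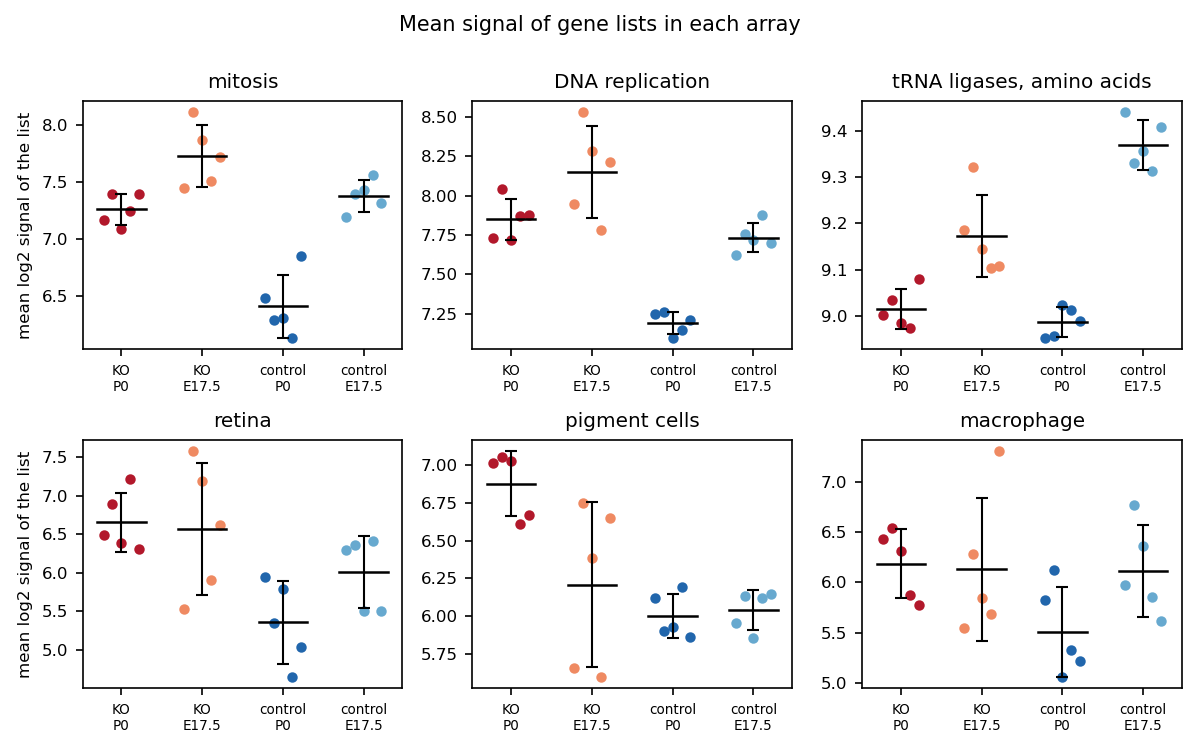
Mean log2 signal of 6 gene lists in each array (points, mean and SD of 5 arrays in black) for knockout P0, knockout E17.5, control P0 and control E17.5. Mitosis and replication genes are low in control P0 arrays, and retina and pigment markers spread widely among knockout E17.5 arrays.

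A measure of the RNA also moved with genotype and stage. The 18S ribosomal RNA signal averaged 9.53 ± 0.44 in knockout P0, 9.71 ± 0.51 in knockout E17.5 arrays, 9.90 ± 0.18 in control P0 and 9.01 ± 0.27 in control E17.5 arrays (SD, n = 5 each). The knockout effect was -0.378 at P0 and 0.705 at E17.5, and their difference of -1.08 passed an exact two-sided permutation test of the genotype labels within stages (p = 0.00246, adjusted p = 0.00983 over 4 measures). The part of the 18S signal in the gene differences was not tested beyond the covariate fit. The knockout effect on the Gapdh 5' minus 3' signal, a sign of RNA length, differed between stages by -0.019 (exact permutation p = 0.832). That on the actin 5' minus 3' signal differed by 0.015 (exact permutation p = 0.884) and that on the array median by 0.027 (exact permutation p = 0.540). The genotypes themselves differed at both stages. Knockout minus control was 0.180 at P0 and 0.199 at E17.5 for Gapdh, with no overlap, and 0.153 and 0.138 for actin. The permutation shuffles genotype within a stage, so such a shared shift widens its spread. The p-values of Gapdh and actin therefore do not show that a difference is absent.

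No member of the lists of general metabolism and signalling was called. Median differences were 0.02 for 30 ribosomal proteins, 0.08 for 34 subunits of oxidative phosphorylation, 0.09 for 31 proteasome subunits, 0.10 for 23 genes of the endoplasmic reticulum stress response, 0.16 for 13 heat shock genes, 0.06 for 21 antioxidant genes, 0.00 for 26 genes of glycolysis and hypoxia, 0.05 for 23 genes of autophagy and organelle loss and -0.10 for 23 genes of cholesterol and lipid synthesis. They were 0.04 for pocket proteins and inhibitors, 0.07 for FGF, BMP and TGF signalling, 0.02 for Notch and Wnt signalling and -0.11 for mesenchyme. The median over all genes was 0.03. At an unadjusted p below 0.05, oxidative phosphorylation held 7 positive and 1 negative, and each of the others held at most 4 in either direction. Genes of cholesterol and lipid synthesis fell in both genotypes, 10 of 23 in knockout and 17 of 23 in control lenses, with a median stage change of -0.39 in knockout and -0.40 in control lenses. Ldha, lactate dehydrogenase, changed by -0.63 ± 0.10 in knockout and -1.23 ± 0.14 in control lenses (difference 0.60 ± 0.18, adjusted p = 0.136).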

How the data were processed

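The series holds 20 Affymetrix arrays of mouse lens RNA, 5 in each group. The log2 values of the probe sets are the authors' processed values as deposited. The log2 scale was read from the values (1.72 to 15.0), and how they were summarised and normalized is not stated in the labels used here. Array medians were 5.05 to 5.25, and no pair of arrays had over 0.142% equal values.

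Of 45101 probe sets, 64 controls were left out. The remaining probe sets were 34945 with 1 gene, 932 with several and 9160 with none. The RefSeq table (GRCm38.p6) updated 34741 symbols. Each of 18193 genes was represented by the probe set with the highest mean, and 11860 genes above the array median in at least 5 of 20 arrays were tested with limma 3.58.1 in R 4.3.3 (lmFit, eBayes, Benjamini-Hochberg). The difference was fitted on all 20 arrays (16 residual degrees of freedom), and each stage change on the 10 arrays of its genotype. Labels give neither litters nor batches, so p-values measure the spread between samples. Array measures were tested by exact permutation.

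The members and the 35 gene lists were chosen with earlier results of these data known. Named genes are the targeted genes, up to 10 called differences in each direction, 6 in each class, and up to 4 called members of a list in each direction, or the 2 with the smallest p where none was called. Lists with under 5 tested genes (red cells and corneal surface) named none. Another 20 of the 105 genes were named after their values were seen. The 18S covariate was chosen after seeing the data. In simulated data the difference was recovered for 49.3% of 67 genes changed by 0.5, 88.1% of 67 changed by 1 and 98.5% of 66 changed by 2 (log2), and 9.77% of 174 calls were false. The simulated noise was drawn independently for each gene and array, with no effect shared by the genes of an array. The recovered and false shares therefore do not carry over to these arrays.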

Additional observations from a re-analysis of the deposited data

Results flagged for a closer look

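The knockout effect differed between the stages, by the limma test of the difference, for 21 genes. Positive differences (P0 minus E17.5, log2) were 1.135 for Ociad2, 1.041 for Ecrg4, 0.7713 for Aars and 0.5151 for Ak5. Negative differences were -1.664 for Col4a3, -1.517 for Abi3bp, -1.175 for Tafa4, -1.024 for Pnisr, -0.9574 for Rarb, -0.7381 for Ice2, -0.7159 for Dcaf17, -0.6586 for Nbeal1 and -0.6567 for Clrn1. Smaller negative differences were -0.594 for Rif1, -0.5933 for Cep350, -0.5764 for Hlf, -0.5742 for 2700038G22Rik, -0.5362 for Zmym2, -0.5341 for Tasor, -0.4888 for Zfp322a and -0.3762 for Btaf1.

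A single array lay apart from the other 4 of its group in 6 of 108 groups examined, and chance gives about 1 in 20. Aars was at 9.6 in knockout P0 replicate 18, with the others between 9.209 and 9.322. Pnisr was at 8.19 in control P0 replicate 1, with the others between 8.431 and 8.46. Dcaf17 was at 7.268 in control P0 replicate 6, with the others between 7.042 and 7.097. Hlf was at 6.596 in control E17.5 replicate 10, with the others between 6.765 and 6.81, and 2700038G22Rik was at 7.605 in control E17.5 replicate 11, with the others between 7.707 and 7.745. The actin 5' minus 3' signal was -1.013 in knockout E17.5 replicate 28, with the others between -0.783 and -0.7075.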

How the results depend on the processing

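The count of 21 called differences lay between 17 and 21 under quantile normalization, median centring, no filter, a 75th percentile filter, the mean of probe sets (where 9 of its 17 were among the 21), leaving out _x_at and _s_at probe sets, robust eBayes and the Gapdh covariate. It was 0 with array weights per group, 0 with the 18S covariate, 1 with the retina covariate, 45 without knockout E17.5 replicates 24 and 27, 146 without replicates 25 and 26, and 96 over every probe set. Leaving out 1 array gave 0 to 321. Each of the 21 genes was called in 8 to 18 settings. The sign was kept in all settings, which reuse most of the arrays that chose the genes. The cause of the lost calls was not tested.

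The knockout stage change (1728) was 2644 with no filter, 887 with the 75th percentile filter, 68 without replicates 25 and 26, 3940 when fitted on all 20 arrays, and 440 to 2716 leaving out 1 array. The control stage change (4436) was 451 with the 18S covariate, 2046 when fitted on all 20 arrays, and 3672 to 4447 leaving out 1 array. Genes called in both (1006) numbered 648 with the 75th percentile filter, 126 with the 18S covariate, 52 without replicates 25 and 26, and 315 to 1458 leaving out 1 array.

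Of the classes, reversed (2) was 1 under quantile normalization, 5 with the mean of probe sets and 1 without replicates 25 and 26, and 0 with array weights, the retina or 18S covariate, an adjusted p below 0.01, or a minimum control change of 0.5. Blocked (7) was 2 with the mean of probe sets, 13 without replicates 24 and 27, 89 without replicates 25 and 26 and 4 with the minimum change, and 0 with array weights, either covariate or an adjusted p below 0.01. Exaggerated (1) was 2 without replicates 24 and 27 and 4 without replicates 25 and 26, and 0 under quantile normalization, no filter, the mean of probe sets, array weights, the retina, Gapdh or 18S covariate, the fit on all 20 arrays, an adjusted p below 0.01 or the minimum change. Gained (11) was 7 with the 75th percentile filter, 1 with the retina covariate, 27 without replicates 24 and 27, and 0 with array weights, the 18S covariate or an adjusted p below 0.01. Leaving out 1 array gave 0 to 17 reversed, 0 to 62 blocked, 0 to 1 reduced, 0 to 32 exaggerated and 0 to 210 gained changes.

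Over the alternatives for 105 named genes, 2972 values kept sign and side of the threshold, 382 lost the call, 68 gained it and 13 changed sign. With the 18S covariate the difference was 0.3144 for Col4a4, 0.04166 for Col4a5 and -0.008234 for Mcm5. With the mean of probe sets it was 0.01986 for E2f1, 0.003835 for Six3 and 0.007686 for Trp53bp1. For E2f3 it was -0.01541 under median centring and between -0.07789 and 0.04977 leaving out 1 array. Leaving out 1 array, the actin measure lay between -0.03937 and 0.04828, the array median between -0.004223 and 0.04447, and 18S between -1.219 and -0.8798, called in 20 of 20. List medians kept their sign in all 33 alternatives for mitosis (0.26 to 0.70), amino acid supply (0.11 to 0.23), macrophages (0.38 to 1.13), pigment cells (0.21 to 1.46), ciliary body (0.23 to 1.53), glia (0.14 to 1.05), lens epithelium (-0.37 to -0.11) and capsule (-0.32 to -0.03). They changed sign in 1 for replication (18S covariate) and in 2 for retina (retina and 18S covariates). The retina covariate is the mean of the tested retina markers themselves, so that fit cannot test the retina list. No paired analysis was possible because the groups share no replicate number.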
